A study of Mus musculus with 8 samples.

Results

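The cells described here are brain microglia with little or no RNA of the chemokine genes Ccl3 and Ccl4. They were chosen from single-cell RNA-seq of mouse cerebral cortex by their unique molecular identifier (UMI) counts, scaled to 10000 UMIs per cell (CP10k). A member held at least 60 CP10k of C1qa, C1qb and Ctss summed and at least 10 CP10k of P2ry12, Tmem119 and Cx3cr1 summed. It held under 20 CP10k of each of 4 other sums: Ccl3 with Ccl4, the macrophage genes Mrc1, Pf4 and Lyz2, the endothelial genes Cldn5, Flt1 and Pecam1, and the MHC class II group Cd74, H2-Aa, H2-Ab1 and H2-Eb1. Of 50254 cells with at least 500 genes and under 15% mitochondrial UMIs, 7484 met the microglia criteria before the chemokine and MHC class II ceilings, and 3154 were members. The other microglia were 4257 cells with 20 CP10k or more of Ccl3 and Ccl4 (high-Ccl3/Ccl4 microglia) and 73 MHC class II positive cells.

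Microglia are the resident macrophages of the brain. They survey the tissue through the purinergic receptor P2ry12 and the fractalkine receptor Cx3cr1, and their identity depends on colony-stimulating factor 1 and transforming growth factor β signalling. Ccl3 and Ccl4 encode chemokines that attract leukocytes through chemokine receptors, and microglia are known to transcribe them, with other NF-κB target genes, when activated and also while tissue is being dissociated. Laminins are trimeric basement membrane proteins. Lama4 and Lama5 encode the α chains of the laminins of endothelial basement membranes, the layer that separates brain vessels from the surrounding cells.

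The study compared wild-type mice with constitutive Lama4-/- mice in one experiment, and wild-type mice with Tek-Cre:Lama5-/- mice, in another. Tek-Cre is expressed in the endothelial lineage and is also known to act in blood-forming cells. All mice were 8 weeks old and were perfused with PBS. For each group the cortical plates of 3 brains were pooled and digested with papain, DNase and Liberase for 60 min at 37 °C, and myelin was removed. Each group had 2 deposited libraries, made by droplet capture of RNA 3′ ends, and the 2 Lama4-/- deposits held identical values and were counted as 1 library. The labels do not tie the 2 libraries of a group to separate mice, so their spread may be technical, p-values measure only that spread, and the genotype cannot be told apart from the pool of mice and its preparation. The targeted genes were read in cells with endothelial genes. Lama4 was at 46.6 and 44.8 UMIs per 1000000 UMIs (CPM) in wild type and at 0.0549 CPM, 1 UMI, in the Lama4-/- library. Lama5 was at 42.6 and 42.0 CPM in wild type and at 24.8 and 27.2 CPM in Tek-Cre:Lama5-/-; a 3′ tag may lie outside the deleted part. Members themselves carried 0 to 14 UMIs of Lama4 and 0 to 23 of Lama5 per library. In the Lama5 experiment they held 3 and 1 Lama5 UMIs in wild type and 0 in both knockout libraries, too few to read whether Lama5 was deleted in them.

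Depth differed more between the experiments than within them. The 7 libraries held 35479306 to 48314458 UMIs, and members held 4876272 and 4835127 UMIs in the wild-type libraries of the Lama4 experiment, 3683548 in Lama4-/-, 650055 and 487066 in the wild-type libraries of the Lama5 experiment, and 1020224 and 856475 in Tek-Cre:Lama5-/-. The median member had 5510.5 to 6974 UMIs in the Lama4 experiment and 2636 to 3411 in the Lama5 experiment. Median mitochondrial shares were 4.06% to 4.29% and 1.52% to 2.10%, respectively. At most 1 member barcode was shared by 2 libraries.

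Members carried the markers of microglia. Fcrls, a microglial Fc receptor-like gene that the choice of cells did not use, was detected in 82.7% to 93.2% of members after thinning each cell to 1500 UMIs, and in 1.07% to 2.71% of endothelial cells thinned the same way. Siglech, a microglial sialic acid-binding lectin, reached 83.1% to 87.0% against 0.629% to 1.66%, and Sall1, a transcription factor that maintains microglial identity, 15.9% to 26.4% against 0.190% to 0.542%. Unthinned, Fcrls was found in 90.2% to 99.9% of members. The RNA of members was led by Cst3, the secreted protease inhibitor cystatin C, at a mean of 51008 CPM (35573 to 68816 over libraries), followed outside the genes of the rule by the nuclear RNA Malat1, the ribosomal RNA-related Gm42418 and the actin-binding Tmsb4x.

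RNA of genes listed as markers of other cell types was present at lower and uneven levels. The 7 microglia markers summed to 13531 to 22117 CPM in members. The 10 endothelial markers summed to 114 to 230 CPM, the 10 perivascular macrophage markers to 209 to 516 CPM, the 8 neuronal markers to 14.4 to 67.3 CPM, the 6 lymphocyte markers to 189 to 290 CPM, and the 8 monocyte and neutrophil markers to 2.34 to 28.3 CPM. Members held more of the lymphocyte markers than the rest of the kept cells in every library. In wild-type replicate 1 of the Lama5 experiment this was 228 against 20.6 CPM, with no UMI of 5 of the 6 genes. High-Ccl3/Ccl4 microglia held 240 CPM there. The macrophage sum was higher in members in the Lama5 experiment (292 against 144 CPM in that library) and lower in the Lama4 experiment. The lymphocyte and macrophage sums therefore need not be RNA of other cells. The 7 oligodendrocyte markers summed to values from 210 CPM in Lama4-/- to 1702 CPM in wild-type replicate 2 of the Lama5 experiment. The 5 erythrocyte genes summed to 157 and 202 CPM in the wild-type libraries and 695 CPM in Lama4-/-, and to 485 and 768 CPM in the wild-type libraries and 83.3 and 80.6 CPM in Tek-Cre:Lama5-/-.

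The chemokine ceiling divided a continuous range. Members had a median of 1.18 to 6.53 CP10k of Ccl3 and Ccl4 summed, and 25.1% to 48.1% of members in a library had no UMI of either. High-Ccl3/Ccl4 microglia had medians of 76.0 to 117 CP10k. Between 16 and 50 members per library lay just inside the ceiling, at 15 to 20 CP10k, and 25 to 46 high-Ccl3/Ccl4 cells lay just outside it, at 20 to 25 CP10k. Just inside and just outside, P2ry12 stood at 1669 to 2489 CPM and 1691 to 2768 CPM, Fcrls at 1265 to 2248 CPM and 1446 to 2337 CPM, the inflammatory cytokine Tnf at 136 to 299 CPM and 154 to 305 CPM, and the cytokine Il1b at 0 to 166 CPM and 0 to 88.8 CPM. The ranges overlapped for each of these 4 genes. Within libraries, Fos was higher just outside than just inside in all 3 libraries of the Lama4 experiment (477 and 728 CPM, 230 and 452 CPM, and 222 and 777 CPM) and in 2 of 4 of the Lama5 experiment.

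The genes that varied most among members included heat-shock genes, genes of other cell types, and the abundant Cst3, Malat1 and Gm42418. The Fano factor, variance over mean of UMIs per member after thinning to 1500 UMIs, had a median of 1.02 and a 95th percentile of 1.29 over 4416 genes. The heat-shock genes Hspa1a, Hspa1b and Hsp90aa1, which encode protein-folding chaperones, stood at 6.20, 5.21 and 4.88. Hspa1a and Hspa1b are near-identical copies, so reads may be split between them. Cst3 stood at 9.90, with a range of 7.06 to 11.9 over libraries. The prostaglandin synthase Ptgds (8.35), the smooth muscle actin Acta2 (8.31) and the lipoprotein Apoe (5.49) were also among the 10 highest. So were Malat1 (13) and Gm42418 (6.85). Cst3, Malat1 and Gm42418 had means of 77.2, 46.1 and 33.8 of 1500 UMIs, beside 4.42 for Hspa1a. The Fano factor was not corrected for the mean.

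Some of these genes came from very few members. In the Lama4-/- library a single member held 1755 of 1851 UMIs of the β-globin gene Hbb-bs. Of the pericyte gene Rgs5, a single member held 16 of 20 UMIs in wild-type replicate 1 of the Lama5 experiment and 30 of 36 in Tek-Cre:Lama5-/- replicate 2. Acta2 had 81 of 123 and 43 of 53 UMIs in 1 member of the same 2 libraries. In contrast, no member held more than 7.55% of the UMIs of Txnrd1, a thioredoxin reductase, in any library, nor more than 2.85% of those of Nfkbia, the NF-κB inhibitor IκBα. The plot of the share held by 1 member separates the genes in this way.

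**Figure D1:**
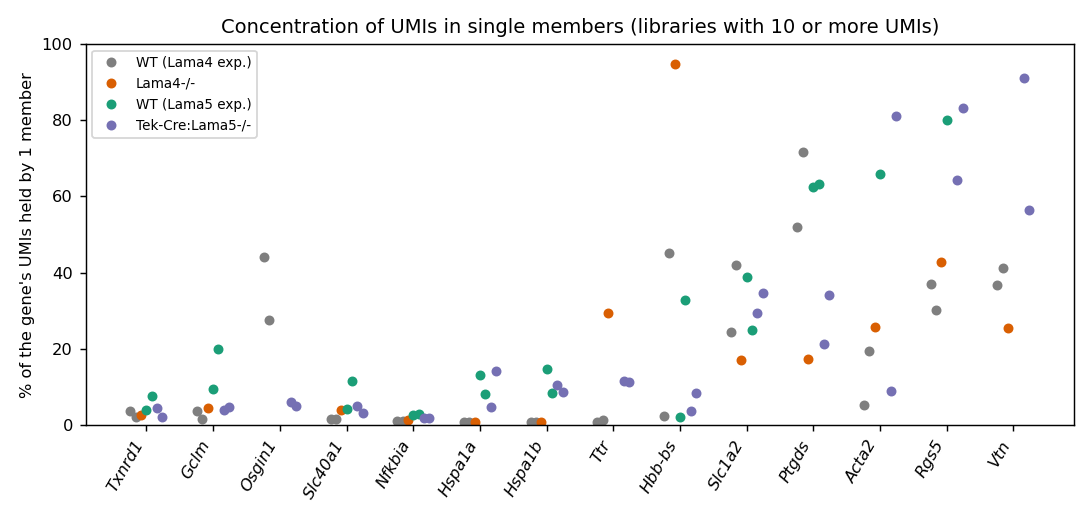
Share of a gene's UMIs that 1 member held, in percent (vertical axis), for 14 genes (horizontal axis); each point is 1 library with at least 10 UMIs of the gene in members. Txnrd1 lies at or below 7.55% and Nfkbia at or below 2.85% in every library, while Hbb-bs reaches 94.8% in Lama4-/- and Vtn 91.1% in Tek-Cre:Lama5-/- replicate 1.

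Gene lists were also summed per member. The 40 homeostatic microglia genes took a median of 172.5 to 184 of 1500 UMIs in the Lama4 experiment and 107.5 to 124 in the Lama5 experiment, with 117.15 to 228.85 UMIs from the 5th to the 95th percentile of members in wild-type replicate 1 of the Lama4 experiment. The 28 early response and dissociation stress genes took medians of 41 to 50 UMIs, and in that same library ran from 12.15 to 117 UMIs. In wild-type replicate 1 of the Lama5 experiment the same percentiles were 67.15 to 163.95 UMIs for the homeostatic and 25 to 85 UMIs for the early response genes. The 27 NF-κB and cytokine genes took 5 to 8 UMIs in members and 9 to 13 in high-Ccl3/Ccl4 microglia. Interferon response genes and cell cycle genes had medians of 0 or 1 UMI in every library.

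Against high-Ccl3/Ccl4 microglia, members had less RNA of other inflammatory genes. The rule used this contrast, so the values are a description with no test; ratios are log2 of members over high-Ccl3/Ccl4 microglia, with 0.5 CPM added. Among 3178 genes at 50 CPM or more, 346 were higher and 209 lower in members in 7 of 7 libraries, and the median gene stood at 0.05. The 8 lower genes with the largest median ratios were cytokines, chemokine genes and related surface genes. Il1b, the interleukin-1β gene, was at 4.34 to 67.8 CPM in members and 58.6 to 257 CPM in high-Ccl3/Ccl4 microglia (median ratio -2.84). Tnf was at 116 to 222 CPM against 294 to 433 CPM (-1.34), and no library of members reached any library of the other microglia. Il1a, the interleukin-1α gene, followed at -1.48, the microglial growth factor Csf1 at -1.60, the cytokine Osm at -1.39, the syndecan Sdc4 at -1.33 and the chemerin-binding receptor Ccrl2 at -1.28.

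Cxcl10, an interferon- and NF-κB-responsive chemokine, had the largest median, -3.46, and differed by experiment. In the Lama5 experiment it was at 11.7 to 30.8 CPM in members and 199 to 391 CPM in high-Ccl3/Ccl4 microglia. In the Lama4 experiment it was at 144 to 175 CPM against 179 to 271 CPM, so that the smallest ratio was -0.15. Genes higher in members had smaller ratios; 6 of the 8 largest were the astrocyte glutamate transporter Slc1a2 (1.08), the ERK phosphatase Dusp6 (0.81), the non-coding Gm26917 (0.79), the stress-response gene Ddit4 (0.77), Sesn1 (0.62) and the fatty acid desaturase Scd2 (0.55). Dusp6 was at 84.3 to 164 CPM in members and 40.7 to 103 CPM in the other microglia. All 3 astrocyte markers at this level were higher in members in 7 of 7 libraries, beside 346 of all 3178 genes. Their median was 0.88, and the part of astrocyte RNA in the Slc1a2 ratio was not tested.

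**Figure D2:**
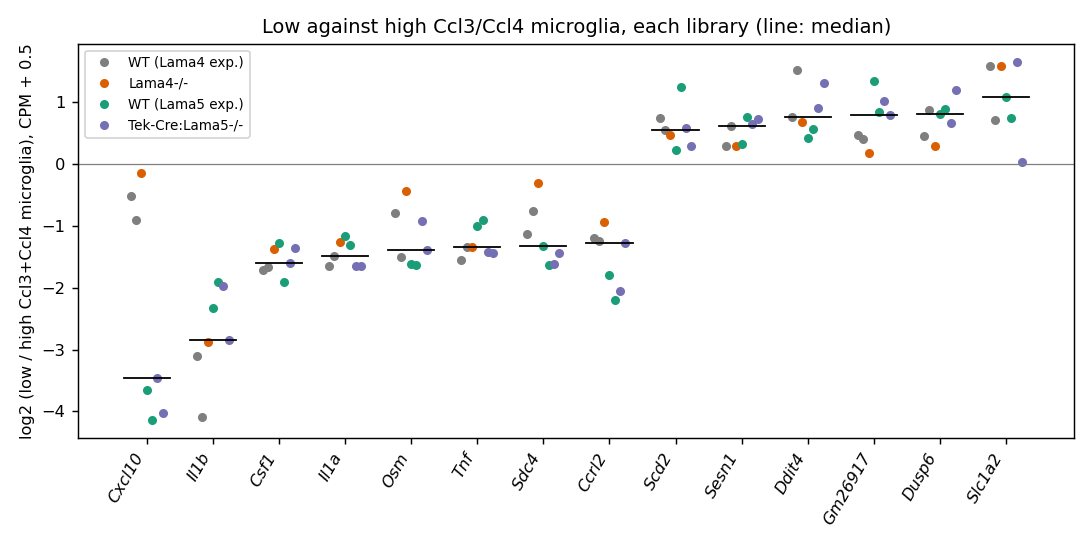
Log2 ratio of CPM plus 0.5 in members over high-Ccl3/Ccl4 microglia (vertical axis) for 14 genes (horizontal axis); points are the 7 libraries and the line marks their median. Il1b, Csf1, Il1a and Tnf lie below -0.9 in every library, and Cxcl10 spreads from -4.14 to -0.15.

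By list, 18 of 21 NF-κB and cytokine genes were lower in members in 7 of 7 libraries, beside 209 of all 3178 genes. Their median was -0.89, beside 0.05 for all genes. The homeostatic list moved the other way by less. Of its 40 genes 24 were higher in 7 of 7 libraries, beside 346 of all 3178 genes. In the same list 2 were lower, and the median was 0.12. The adhesion receptor Adgrg1 (0.34), the purinergic receptor P2ry13 (0.33) and Sall1 (0.27) were on the higher side. The fatty acid receptor Gpr84 (-1.0) and the signalling adaptor Tyrobp (-0.08) were on the lower side.

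Sequences upstream of genes lower in members or in Tek-Cre:Lama5-/- were searched for an NF-κB site, GGGA and TTCC with any 2 bases between them, on both strands in the 250 bases before each start site of the RefSeq promoter table, GRCm38.p6. Of the 8 genes lowest in members against high-Ccl3/Ccl4 microglia, 7 had a promoter in the table and 2 of these held a match. Over all searched genes, 368 of 27025 (1.36%) held a match. The stretches shown are those 2 and the one of Nfkbia, an NF-κB target that fell in Tek-Cre:Lama5-/- members. Each is given 5′ to 3′ on the strand of its gene, with the matching letters in capitals.
Cxcl10: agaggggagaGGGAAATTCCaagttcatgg
Csf1: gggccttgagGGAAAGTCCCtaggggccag
Nfkbia: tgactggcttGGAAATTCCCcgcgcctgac
These lie on the minus strand at chr5:92349029-92349058, chr3:107760604-107760633 and chr12:55492657-55492686. The matches began 159, 154 and 29 bases before the start. Among searched genes at 50 CPM, 44 of 2526 (1.74%) held the letters. So did 5 of 176 (2.84%) of those lower in members in every library and 4 of 269 (1.49%) of those higher. Of genes lower in Tek-Cre:Lama5-/- members 5 of 112 (4.46%) held them, Nfkbia and Cd300ld included. This stands beside 1 of 203 (0.49%) of those higher and 89 of 5899 (1.51%) of all tested. Of Ccl3 and Ccl4, 1 had a promoter in the table and it held no match. No test was made of these shares. A match describes letters, not binding.

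To compare how many members each group yielded, the share of members was taken per library. In the Lama5 experiment members were 2.23% and 2.05% of kept wild-type cells and 4.29% and 3.80% of Tek-Cre:Lama5-/- cells. Both knockout libraries lay above both wild-type libraries (2.14 ± 0.127% against 4.05 ± 0.350%, SD, n = 2 each; difference 1.90 points, p = 0.33, two-sided exact permutation test, the smallest this design allows). All microglia followed the same order, at 6.91% and 6.44% of wild-type and 12.1% and 10.9% of knockout cells (difference 4.82 points, p = 0.33, same exact permutation test). Within microglia the share of members was 32.3% and 31.9% in wild type and 35.5% and 34.9% in Tek-Cre:Lama5-/- (32.1 ± 0.313% against 35.2 ± 0.404%, n = 2 each; difference 3.1 points, p = 0.33, exact permutation test). With a ceiling of 10 CP10k this difference shrank to 0.65 points and the groups overlapped (p = 1, exact permutation test). More cells of a type in the brain and a better recovery of that type from digestion cannot be told apart.

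In the Lama4 experiment members were 12.8% and 13.2% of kept wild-type cells and 12.7% of Lama4-/- cells (exact binomial 95% interval 11.9% to 13.7%, counting error only). They were 46.4% and 46.9% of wild-type microglia and 50.3% (47.6% to 53.0%) of Lama4-/- microglia. The 62 MHC class II positive microglia in Lama4-/- made up 4.58% (3.53% to 5.83%) of its microglia, compared with 0 cells, which allows up to 0.239%, and 2 cells (0.133%) in the wild-type libraries. With 1 Lama4-/- library, none of these differences has a replicate check.

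**Figure D3:**
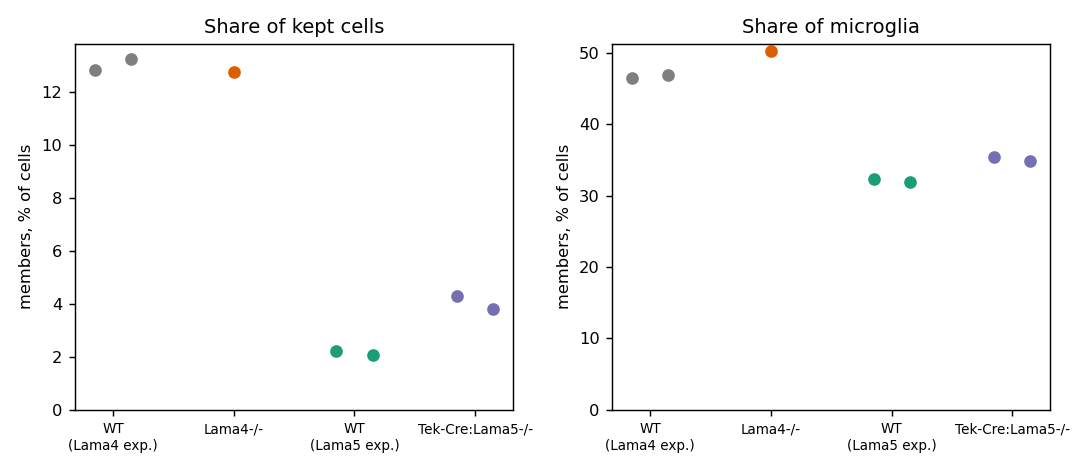
Members as a percent of kept cells (left) and of all microglia (right), both on axes in percent; each point is 1 library and groups are on the horizontal axis. Both Tek-Cre:Lama5-/- libraries lie above both wild-type libraries of the same experiment in each panel, and the Lama4 experiment lies above the Lama5 experiment throughout.

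To compare members of Tek-Cre:Lama5-/- and wild-type mice, UMI counts were summed per library and fitted with edgeR's quasi-likelihood test; values below are CPM with TMM scaling, in the order wild-type replicate 1 and 2, then Tek-Cre:Lama5-/- replicate 1 and 2. Of 7432 tested genes outside the rule, 422 (5.68%) passed a Benjamini-Hochberg adjusted p of 0.05. Of these, 261 (3.51%) were higher and 161 (2.17%) lower in Tek-Cre:Lama5-/-, and 1367 genes had an unadjusted p under 0.05. DESeq2 called 87 genes, 58 higher and 29 lower, and edgeR called 106 and 74 without wild-type replicate 1 and 2 and 237 and 245 without knockout replicate 1 and 2. At 20 CPM or more, the values of the groups did not overlap for 2925 of 6010 genes (48.7%). Of the 422 calls, 80 reached an absolute log2 fold change of 1.

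Stress-response and redox genes were among those that rose most. Osgin1, an oxidative stress-induced growth inhibitor (chromosome 8, 119434124 to 119446256, GRCm38), rose from 9.03 and 8.08 CPM to 48.8 and 70.4 CPM, and from 3.14% and 2.29% to 10.9% and 14.5% of members with a UMI (log2 fold change 2.74 ± 0.38 SE, adjusted p = 8.75e-08, edgeR). Gclm, the modifier subunit of the enzyme that limits glutathione synthesis, rose from 31.6 and 40.4 to 98.6 and 101.5 CPM (1.49 ± 0.23, adjusted p = 1.70e-06). Txnrd1 rose from 184 and 214 to 431 and 410 CPM (1.09 ± 0.11, adjusted p = 9.08e-13), and its UMIs were found in 37.2% and 36.0% of wild-type and 51.7% and 51.4% of knockout members. For each of these 3 genes both knockout libraries lay above both wild-type libraries, which the choice of named genes required. In high-Ccl3/Ccl4 microglia the same genes stood at log2 fold changes of 1.66, 1.41 and 0.98. In endothelial cells they stood at 0.98, -0.11 and 0.37, and the effect was larger in members for all 3 (adjusted p = 0.0406, 3.73e-09 and 3.61e-06, edgeR interaction term over 14046 genes, of which 266, 1.89%, passed; a fit added after results were seen).

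Gclm and Txnrd1 were the 2 of 9 matched promoters, among the 12 genes with the largest rise, that held the antioxidant response core TGACNNNGC (reverse GCNNNGTCA), and they are shown for that reason, with the match in capitals.
Gclm: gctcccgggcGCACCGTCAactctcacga
Txnrd1: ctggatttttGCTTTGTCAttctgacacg
Both lie on the plus strand, at chr3:122245413-122245441 and chr10:82859104-82859132 (GRCm38.p6), and the matches began 134 and 92 bases before the RefSeq start. The core was found in 40 of 203 (19.7%) searched genes that rose, 13 of 112 (11.6%) that fell and 826 of 5899 (14.0%) of all tested. No test was made of these shares.

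The other genes with the largest rise were of mixed kinds. Itga5, the fibronectin receptor α5 integrin, rose from 9.03 and 16.2 to 53.8 and 43.0 CPM (1.99 ± 0.37, adjusted p = 6.64e-05), while high-Ccl3/Ccl4 microglia stood at 1.04 and endothelial cells at 0.27. Lmna, which encodes nuclear lamins A and C, rose from 27.1 and 42.4 to 94.6 and 93.1 CPM (1.47 ± 0.24, adjusted p = 6.46e-06). The membrane gene Ptchd1 (1.80), the tubulin Tubb6 (1.42), the stress cytokine Gdf15 (1.18), the transcriptional corepressor Nab2 (1.17) and the phosphatase Ptpn12 (1.16) rose with adjusted p of 0.00196 to 0.0193. Ptpn12 and Nab2 passed in 5 and 7 of 11 alternative settings. Without wild-type replicate 1 the calls of Itga5, Lmna and Gdf15 (0.54) were lost, and Ptchd1 and Tubb6 lost theirs without either wild-type library; Gdf15 was also lost without knockout replicate 1.

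The 2 largest rises among the named genes belonged to genes of other cell types. Ttr, the thyroid hormone carrier made by choroid plexus, had 1 UMI over both wild-type and 192 over both knockout libraries, a ratio of 116 (95% counting interval 20.6 to 4619), and was found in 1 of 191 and 0 of 175 wild-type members and in 23.2% and 18.5% of knockout members. Its log2 fold change was 6.66 in members and 8.06 in endothelial cells, and the difference did not pass (adjusted p = 0.936). Over kept cells outside the members, Ttr was 8.01 times as high as in members. Vtn, a pericyte vitronectin gene, had 7 and 79 UMIs (log2 fold change 2.78, adjusted p = 1.99e-05), of which 51 of 56 in knockout replicate 1 came from a single member, and it fell below the expression filter once possible doublets were left out. Its call was lost without wild-type replicate 2 or knockout replicate 1.

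Globin and heat-shock genes were among those that fell. Hbb-bs fell from 295 and 455 to 51.8 and 41.8 CPM (log2 fold change -2.96 ± 0.16, adjusted p = 3.04e-27, edgeR), and from 59.7% and 61.1% to 13.1% and 8.92% of members with a UMI. Hba-a2 (-3.12) and Hba-a1 (-2.66), the α-globin copies, fell with it. In wild-type replicate 2 a single member held 34 of 54 Hba-a2, 36 of 82 Hba-a1 and 74 of 225 Hbb-bs UMIs. Without the member with most Hbb-bs UMIs in each library, Hba-a2 was at 52.6 and 41.4 against 6.88 and 3.51 plain CPM and Hbb-bs at 297 and 312 against 49.1 and 37.4 plain CPM. The level of these 3 genes in the rest of the kept cells was 6.68 to 8.83 times that in members, and all 4 erythrocyte genes tested fell, with a median of -2.81. Hbb-bs stood at -2.72 in high-Ccl3/Ccl4 microglia and at -0.49 in endothelial cells. Hspa1a fell from 739 and 590 to 247 and 242 CPM (-1.46 ± 0.10, adjusted p = 1.93e-22) and Hspa1b from 498 and 453 to 152 and 124 CPM (-1.78 ± 0.11, adjusted p = 1.80e-23). Hspa1a was found in 50.8% and 42.9% of wild-type and 32.1% and 29.8% of knockout members. For each of these named genes the 2 groups lay apart, which their choice required.

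The remaining genes with the largest fall were at low levels and included transporters and membrane genes. Slc36a1, a lysosomal amino acid transporter, fell from 46.6 and 46.5 to 15.9 and 13.1 CPM (-1.66, adjusted p = 0.000317), and the peptide transporter Slc15a2 fell from 46.6 and 62.6 to 21.9 and 11.9 CPM (-1.63, adjusted p = 0.000206). Atp6v0c (-1.80), a proton pump subunit, Pex5l (-1.43), Cd300ld (-1.36), the protocadherin Pcdh9 (-1.33) and the potassium channel Kcnj2 (-1.30) fell with adjusted p of 0.000882 to 0.0291. Without wild-type replicate 2 the calls of Slc36a1, Slc15a2 and Atp6v0c were lost, and without replicate 1 those of Slc36a1, Atp6v0c and Kcnj2 (-0.56). Cd300ld and Pcdh9 passed in 3 of 11 and 3 of 9 alternative settings, and Pex5l had 14 of 20 and 16 of 29 wild-type UMIs in 1 member. Of the 24 named genes, 9 passed in every setting that gave a value: Ttr, Osgin1, Gclm, Txnrd1, Hba-a2, Hbb-bs, Hba-a1, Hspa1b and Hspa1a. DESeq2 called 4 of the 24, Txnrd1, Hbb-bs, Hspa1b and Hspa1a, and gave no adjusted p for the others. A further 12 called genes, among them Ptgds, Cryab and Rgs5, were over 10 times as high in the rest of the kept cells as in members and were counted apart as possible free RNA. Pcdh9 and Pex5l, at 9.89 and 8.48 times, lay under this mark and stood at 0.15 and 0.61 in high-Ccl3/Ccl4 microglia. The part of other cells in their falls was not tested.

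**Figure D4:**
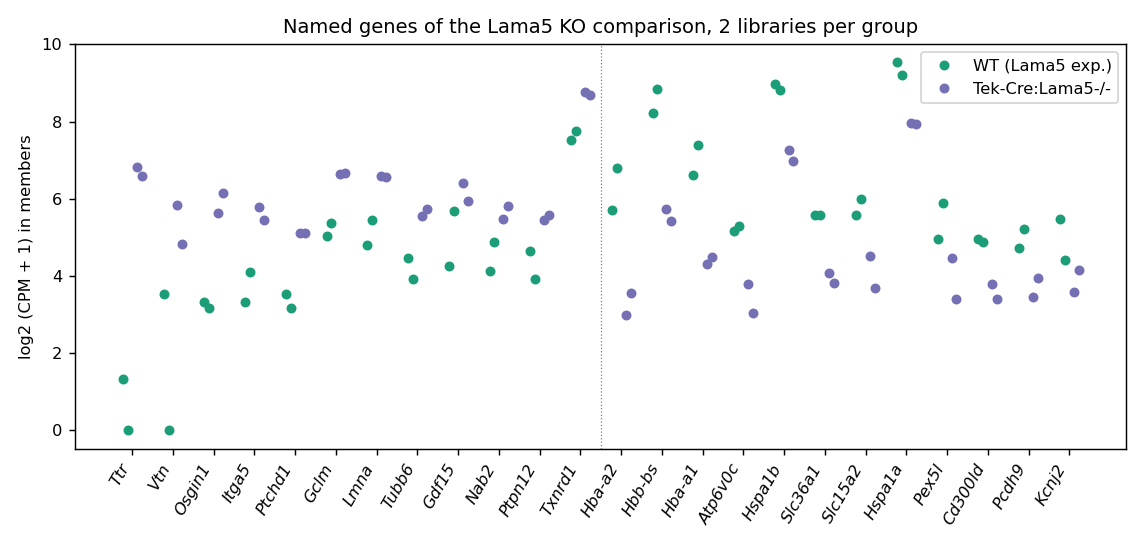
Expression of the 24 named genes in members as log2(CPM + 1) (vertical axis; genes on the horizontal axis), with wild-type and Tek-Cre:Lama5-/- libraries as points in separate colours, 2 libraries each; the dotted line separates the 12 higher from the 12 lower genes. The 2 groups lie apart for every gene, which the choice of these genes required.

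Of the 40 homeostatic genes, all tested, 2 rose (5% of the list, beside 3.51% of all genes) and 5 fell (12.5%, beside 2.17%), with a median log2 fold change of -0.10 beside -0.01 for all genes, and 32 lay below 0; 1 or 2 fell when a library was left out. Fcrls was at 1574 and 1506 CPM in wild type and 1413 and 1436 CPM in Tek-Cre:Lama5-/- (-0.12, adjusted p = 0.335, edgeR). Itgb5, the integrin β5 subunit, fell from 761 and 758 to 554 and 540 CPM (-0.48 ± 0.08, adjusted p = 9.77e-06). Golm1, Slco2b1 and Olfml3 fell by 0.25 to 0.32 on the log2 scale. Spi1, the myeloid transcription factor PU.1, rose from 412 and 390 to 546 and 541 CPM (0.43, adjusted p = 0.000557); DESeq2 did not call it, and it did not pass without wild-type replicate 2.

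Of the 10 iron and heme genes tested, 4 (40%) rose and none fell, with a median of 0.24; DESeq2 called 3, and 2 or 3 rose when a library was left out, Fth1 passing only without wild-type replicate 2. Slc40a1, the iron exporter ferroportin, also counted among the homeostatic genes, rose from 181 and 158 to 332 and 345 CPM (0.98 ± 0.12, adjusted p = 9.60e-10). It stood at 1.0 in high-Ccl3/Ccl4 microglia and at -0.02 in endothelial cells (difference adjusted p = 1.76e-11). The ferritin light chain Ftl1 rose from 6397 and 5931 to 8092 and 8305 CPM (0.40, adjusted p = 1.81e-07) and the heavy chain Fth1 from 2939 and 3090 to 3568 and 3610 CPM (0.25, adjusted p = 0.00359). The fourth, Hpgd, encodes a prostaglandin dehydrogenase and not an iron or heme protein. Hpgd rose by 0.23 on the log2 scale (adjusted p = 0.0499, edgeR) and lost its call under 8 alternatives. The 40% of the list stands beside 3.51% of all tested genes that rose.

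Of 28 early response genes, 12 fell (42.9%, beside 2.17% of all genes) and 2 rose (7.14%, beside 3.51%), with a median of -0.26; the 12 include Hspa1a and Hspa1b, and 8 to 10 fell when a library was left out. Jun fell from 4486 and 4088 to 2883 and 3120 CPM (-0.52 ± 0.06, adjusted p = 1.87e-10). Its AP-1 partner Fos fell from 1852 and 1859 to 1195 and 1380 CPM (-0.54, adjusted p = 3.02e-09), and Btg2, Ier3, Egr1 and Ier2 fell by 0.56 to 0.83 on the log2 scale. Klf6, a zinc finger transcription factor, rose from 1577 and 1564 to 2247 and 2356 CPM (0.54, adjusted p = 4.56e-10), and Fosb rose by 0.25. Such genes respond to tissue digestion, and the part of the preparation in these values was not tested.

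Of the 20 NF-κB and cytokine genes tested, 4 (20%) fell and none rose, with a median of -0.24; DESeq2 called 2, and 2 to 4 fell when a library was left out. The 20% of the list stands beside 2.17% of all tested genes that fell. All 4 genes are regulators of the pathway rather than cytokines. Nfkbia fell from 1368 and 1348 to 811 and 817 CPM (-0.75 ± 0.07, adjusted p = 4.51e-14), and Nfkbid, a nuclear IκB, from 260 and 228 to 122 and 107 CPM (-1.10 ± 0.13, adjusted p = 1.38e-09). Tnfaip3, the inhibitory ubiquitin editor A20, fell from 220 and 206 to 155 and 141 CPM (-0.53, adjusted p = 0.00467) and passed, of the fits with a library left out, only in that without knockout replicate 1. Nfkbiz (-0.32, adjusted p = 0.0466) lost its call when any library was left out. The effect on Nfkbia and Nfkbid differed from endothelial cells, which stood at 0.01 and 0.03 (adjusted p = 3.84e-11 and 3.42e-05, edgeR interaction term). In high-Ccl3/Ccl4 microglia the 2 genes stood at -0.76 and -0.89. Their difference from members did not pass (adjusted p = 0.977 and 0.928, edgeR interaction term). Tnf was at 193 and 218 CPM in wild type and 163 and 159 CPM in Tek-Cre:Lama5-/- and did not pass (-0.34, adjusted p = 0.108), nor did Il1b, at 45.1 and 66.7 against 56.7 and 25.1 CPM (-0.38, adjusted p = 0.515).

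Lysosome and complement genes had 1 rise (3.85%, beside 3.51% of all genes) and 5 falls (19.2%, beside 2.17%) among 26 tested (median -0.09). The tetraspanin Cd63 rose from 354 and 382 to 516 and 498 CPM (0.46, adjusted p = 0.000275), a call lost without wild-type replicate 1. Beside Atp6v0c, Gusb, Man2b1, Psap and Ctsd, which encode lysosomal enzymes and a saposin precursor, fell by 0.20 to 0.53 on the log2 scale, and 0 or 1 gene of the list fell when a library was left out. Among 12 damage-associated genes 2 rose (16.7%, beside 3.51% of all genes) and 1 fell (8.33%, beside 2.17%). Lpl, lipoprotein lipase, rose from 21.1 and 24.3 to 42.8 and 50.1 CPM (1.03, adjusted p = 0.0325), Fth1 rose as above, and the lipid carrier Fabp5 fell (-1.07, adjusted p = 0.0252). Fabp5 was 8.79 times as high in the rest of the kept cells as in members. It stood at -0.55 in endothelial cells, and the difference from members did not pass (adjusted p = 0.739, edgeR interaction term). The calls of Lpl and Fabp5 were lost in most alternatives.

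Of 17 adhesion and laminin receptor genes tested, none rose and 2 fell (11.8%, beside 2.17% of all genes), Itgb5 and Itga6 (median -0.09). The integrin gene Itga5, which rose as given above, was not on this list. Itga6, a laminin-binding integrin subunit, fell from 197 and 238 to 150 and 160 CPM (-0.48, adjusted p = 0.0134) and lost its call when any library was left out. The dystroglycan gene Dag1 was at 42.1 and 18.2 against 27.9 and 31.0 CPM, and the shared integrin subunit Itgb1 at 218 and 194 against 210 and 246 CPM (adjusted p = 0.905 and 0.679). In the transforming growth factor β and Csf1 list, 1 of 14 fell (7.14%, beside 2.17% of all genes). This was the inhibitor Smad7, from 456 and 509 to 361 and 378 CPM (-0.38, adjusted p = 0.0037, edgeR). Of the fits with a library left out, Smad7 passed only in that without knockout replicate 2.

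No gene of the interferon (7 tested), MHC class I (11), purinergic (8), glycolysis and hypoxia (13), cell cycle (3) or sex-linked (4) lists passed. In the lipid and cholesterol list 1 of 14 fell (7.14%, beside 2.17% of all genes), Fabp5. Of 90 ribosomal protein genes 7 rose and none fell (median 0.09), with 0 to 2 rising when a library was left out, and of 13 mitochondrially encoded genes 9 fell (median -0.30), mt-Atp6 by 0.35 on the log2 scale. The mitochondrial falls numbered 0 without wild-type replicate 2 and up to 8 without another library. With all libraries, 7.78% of the ribosomal list rose, beside 3.51% of all genes, and 69.2% of the mitochondrial list fell, beside 2.17%. Gm42418, which overlaps a ribosomal RNA repeat, rose from 23430 and 22502 to 43938 and 47559 CPM (0.99, adjusted p = 1.68e-25), and stood at 0.98 in endothelial cells. Markers of other cells moved too. Of the oligodendrocyte genes 3 of 7 (42.9%) fell, and of the astrocyte genes 2 of 4 (50%), beside 2.17% of all genes. Of 5 pericyte and smooth muscle genes 2 rose (40%, beside 3.51%) and 3 fell (60%, beside 2.17%). With possible doublets left out no oligodendrocyte gene passed and 1 of 3 astrocyte genes fell. No pericyte or smooth muscle gene was then left to test. The part of these cells and of depth in the lists was not tested.

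**Figure D5:**
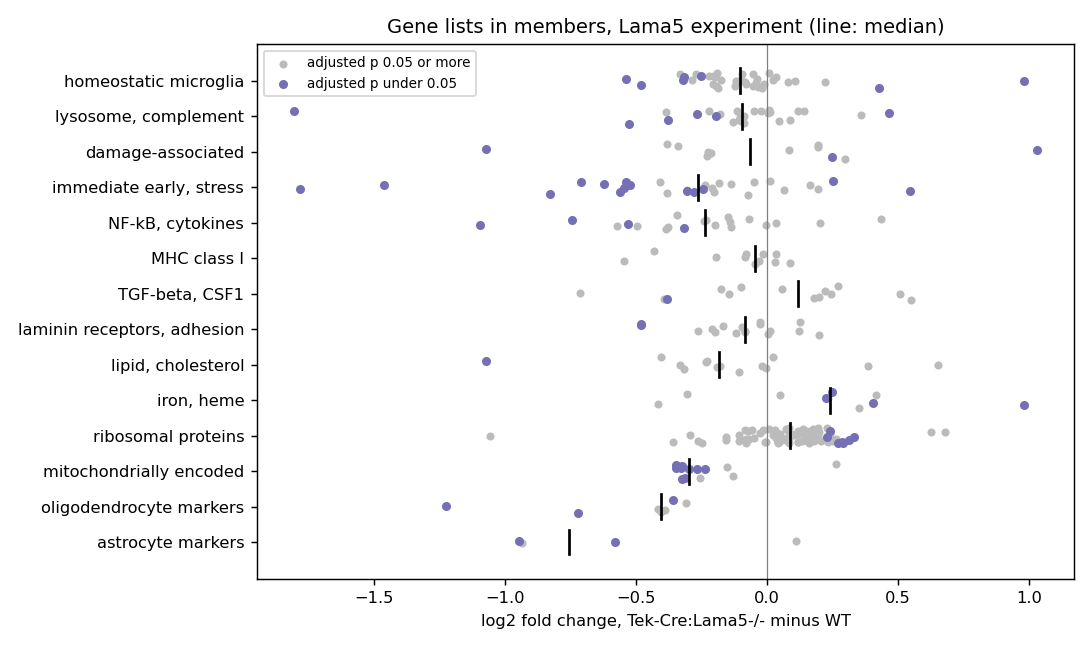
Log2 fold change of Tek-Cre:Lama5-/- over wild type in members (horizontal axis) for each tested gene of 14 lists (vertical axis); purple points have an adjusted p under 0.05 (edgeR) and lines mark list medians. The early response list is centred at -0.26 and the iron and heme list at 0.24, while the homeostatic list lies at -0.10.

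Whether the response to Lama5 deletion differed between members and high-Ccl3/Ccl4 microglia was tested as an interaction with library as a block. Of 8797 genes, 9 (0.102%) passed, 8 with a lower and 1 with a higher effect in members, and 536 had an unadjusted p under 0.05; DESeq2 called 0, with 23 at an unadjusted p under 0.05, and with a library left out edgeR called 5, without knockout replicate 2, to 31, without wild-type replicate 1. In high-Ccl3/Ccl4 microglia alone, 937 of 8916 genes (10.5%) passed. Of the 422 calls in members, 279 also passed there. Hspa1a fell more in members than in high-Ccl3/Ccl4 microglia, where it was at 298 and 310 against 233 and 192 CPM (difference -0.92 ± 0.13, adjusted p = 0.000222). Hspa1b followed, at 187 and 203 against 101.3 and 98.6 CPM there (difference -0.80, adjusted p = 0.0190). Hmox1, the heme-degrading heme oxygenase, was at 140 and 154 CPM in wild-type and 103 and 118 CPM in knockout members and at 123 and 138 against 200 and 197 CPM in high-Ccl3/Ccl4 microglia (difference -1.0 ± 0.18, adjusted p = 0.00739). The groups therefore lay apart in opposite directions in the 2 kinds of microglia, although within members alone Hmox1 did not pass (adjusted p = 0.0971).

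Hsp90aa1 was at 1910 and 2148 against 1897 and 1792 CPM in members and at 1359 and 1412 against 1708 and 1629 CPM in the other microglia (difference -0.38, adjusted p = 0.0109). Fth1 (-0.29), the lipopolysaccharide coreceptor Cd14 (-0.49) and the G protein regulator Rgs1 (-0.57) completed the set, with adjusted p of 0.0399 to 0.0414; these 3 were named after their values were seen. Cd14 was at 432 and 495 against 435 and 367 CPM in members and 802 and 800 against 1032 and 970 CPM in high-Ccl3/Ccl4 microglia. The largest differences, Ptgds (-2.41) and Rgs5 (2.71), were in genes of other cell types: without possible doublets Ptgds stood at -0.16 (adjusted p = 0.99) and Rgs5 gave no value. Without possible doublets Hspa1a and Hmox1 stood at -0.95 and -1.04.

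For the Lama4 deletion there was 1 knockout library, so values are given with no test. A gene was taken as past a rule of size when its log2 ratio over the mean wild-type CPM was at least 1 in either direction and the 95% Poisson interval of Lama4-/-, which covers counting error only, overlapped that of neither wild-type library. Of 5757 genes at 20 CPM or more, 27 (0.469%) met it, 18 higher and 9 lower. The SD of log2 ratios over genes was 0.232, beside 0.194 between the 2 wild-type libraries. Ttr was at 152 and 115 CPM in wild-type and 1719 CPM in Lama4-/- members (3.68), and Enpp2, a lysophospholipase that choroid plexus also makes, at 25 and 21 against 106 CPM (2.18). The 6 choroid plexus and ependymal markers summed to 177 and 139 against 1882 CPM in members, 232 and 509 against 1591 CPM in endothelial cells and 4298 and 3406 against 25637 CPM in the rest of the kept cells.

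The other genes past the rule included erythrocyte, astrocyte and oligodendrocyte genes. Hbb-bs was at 99.9 and 136 against 496 CPM (2.07), almost all from the 1 member described above, and Hba-a2 stood at 1.99 and Hba-a1 at 1.83. Without the member with most Hbb-bs UMIs in each library the direction turned: Hbb-bs was at 96.1 and 74.8 against 26.1 plain CPM, Hba-a1 at 22.6 and 17 against 4.9 plain CPM, and Hba-a2 at 15.4 and 13.7 against 3.54 plain CPM. An Hbb-bs UMI was found in 47.3% and 37.1% of wild-type and 13.2% of Lama4-/- members. Chchd10 (1.87), Gpm6a (1.63) and the neurotrophin receptor Ntrk2 (1.55) were higher, as was Apoe, at 757 and 602 against 1417 CPM (1.06). The myelin gene Mal was at 64.0 and 36.3 against 7.76 CPM (-2.62) and Ptgds at 118 and 110 against 33.7 CPM (-1.74), with AC160336.1 (-1.76), Vtn (-1.40), Rgs5 (-1.33), Sept4 (-1.29) and mt-Nd3 (-1.01) also lower. Without possible doublets 10 genes met the rule, Apoe stood at 0.70 and Ptgds at -0.24, while Ttr stood at 3.13 and Hbb-bs at 2.21.

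In the Lama4 experiment, Poisson intervals lay apart for 124 genes (2.15%) that were higher and 223 (3.87%) that were lower in Lama4-/-. Of the 40 homeostatic genes 11 (27.5%) were higher and 1 (2.5%) lower by this measure, with a median log2 ratio of 0.04. Of 87 ribosomal protein genes 55 (63.2%) were lower and none higher, with a median of -0.23. P2ry13 was at 425 and 392 against 505 CPM (0.31), while Tyrobp was at 3077 and 2934 against 2636 CPM (-0.19). The MHC class I genes H2-D1 (507 and 486 against 575 CPM) and H2-K1 (510 and 502 against 602 CPM) were higher by 0.21 and 0.25. Of genes that changed in Tek-Cre:Lama5-/-, Nfkbia was at 2307 and 2055 against 2132 CPM and Slc40a1 at 110 and 121 against 100.9 CPM.

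More genes passed between the wild-type members of the 2 experiments than between Tek-Cre:Lama5-/- and wild type. Of 10306 genes, 3261 (31.6%) passed edgeR's quasi-likelihood test, 1761 (17.1%) higher and 1500 (14.6%) lower in the Lama5 experiment, and mice, depth and preparation of the 2 pools cannot be told apart. Hspa1a was at 7134 and 6636 CPM in the Lama4 experiment and 708 and 567 CPM in the Lama5 experiment (-3.42, adjusted p = 1.65e-13). Fosb was at 87.9 and 101.2 against 945 and 1026 CPM (3.38), Klf2 at 211 and 287 against 1701 and 1721 CPM (2.78), and Txnrd1 at 28.8 and 29.2 against 176 and 206 CPM (2.71). Of the 40 homeostatic genes 25 were lower and 6 higher in the Lama5 experiment (median -0.43), with Tyrobp at -0.99, Cst3 at -0.90 and the ectonucleotidase Entpd1 at 0.64. Ribosomal protein genes were lower in 80 of 90 cases (median -1.11).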

How the data were processed

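Single-cell RNA-seq was deposited as raw UMI counts per gene and barcode by the authors (Cell Ranger 3.1.0, per the file headers; mm10 and Seurat 3.1, per the submitters' processing notes). The labels name 8 samples; 2 Lama4-/- deposits were identical, leaving 7 libraries of 35479306 to 48314458 UMIs. Members and gene lists were chosen with earlier results of these data known.

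From the counts, cells were kept and members chosen by the rule in the report, summed per library and tested with edgeR 4.0.16 (filterByExpr, TMM, quasi-likelihood test, Benjamini-Hochberg) in R 4.3.3; DESeq2 1.42.0 was an alternative. Scripts ran in Python 3.11.15 with scipy 1.17.1 and were tested on simulated data. Values between members and high-Ccl3/Ccl4 microglia, in marker sums and in target genes are plain CPM; the rest are TMM-scaled. Endothelial cells are kept cells with Cldn5, Flt1 and Pecam1 at 20 CP10k or more and C1qa, C1qb and Ctss under 60. No doublet caller was run; an alternative left out members with 20 CP10k or more of other types' markers and the top 5% by UMIs. Of 31053 gene IDs, 31011 matched GENCODE M21 (GRCm38).

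Named genes were the 12 higher and 12 lower calls with the largest fold change, mean of 20 CPM or more and groups apart; up to 4 per list with the lowest p; the 6 lowest-p interactions; at most 8 a direction for Lama4-/- and, at 50 CPM, for members against high-Ccl3/Ccl4 microglia; and the 10 largest Fano factors. Some named genes are not reported here. Other genes named in the text were chosen after their values were seen. Other alternatives were ceilings of 10 and 40 CP10k, a stricter cell filter (1000 genes, 10% mitochondrial), no count filter, a fit of all libraries, a replicate block and leaving out each library. Leaving out, in each library, the member with most Hbb-bs UMIs was chosen after the data were seen.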

Additional observations from a re-analysis of the deposited data

Results flagged for a closer look

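In 9 genes the log2 effect of Tek-Cre:Lama5-/- differed between members and high-Ccl3/Ccl4 microglia by edgeR's interaction test. The effect was lower in members for Ptgds (-2.41), Hmox1 (-1.0), Hspa1a (-0.92), Hspa1b (-0.80), Rgs1 (-0.57), Cd14 (-0.49), Hsp90aa1 (-0.38) and Fth1 (-0.29), and higher for Rgs5 (2.71). With a ceiling of 10 CP10k Ptgds stood at -0.26.

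In 4 genes members of the Lama4-/- library moved against the direction of Tek-Cre:Lama5-/- members, and this difference was not tested. The log2 ratio in Lama4-/- was -1.40 for Vtn, which rose in Tek-Cre:Lama5-/-. It was 1.99 for Hba-a2, 2.07 for Hbb-bs and 1.83 for Hba-a1, which fell there. A single Lama4-/- member held 94.8% of the Hbb-bs UMIs and 95.1% of the Hba-a2 UMIs of its library. Without the member with most Hbb-bs UMIs in each library, the 3 globin genes were lower in Lama4-/- too: Hbb-bs was at 96.1 and 74.8 CPM in wild type and 26.1 CPM in Lama4-/-. A UMI of Hba-a1 was found in 14.8% and 10.5% of wild-type and 2.79% of Lama4-/- members. No group had more than 2 libraries, so no check for outlying samples was made.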

How the results depend on the processing

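The 422 calls of the Lama5 comparison became 87 with DESeq2, 178 and 705 with ceilings of 10 and 40 CP10k, 276 without possible doublets and 74 to 245 when a library was left out. The interaction gave 0 with DESeq2, 19 with no filter on low counts and 5 to 31 with a library left out. The wild-type comparison gave 1775 with DESeq2 and 1698 with no filter. The 27 genes past the rule of size in Lama4-/- became 15 at a minimum of 50 CPM, 10 without possible doublets and 36 to 46 with a library left out. The Lama4-/- difference in members among kept cells turned from -0.293 to 0.368 points at a ceiling of 10, and was -0.598 at 40, -1.08 with stricter cells and -0.624 without doublets. Among microglia it was 5.51, 3.31, 2.92 and 3.15 points in the same order, beside 3.66. Reversed log2 values, mostly of other cell types' genes, were: with a library left out Tagln ran from -3.13 to 1.42 and Acta2 from -3.31 to 0.94, both highest without wild-type replicate 1, and Slc1a2 from -1.17, without knockout replicate 1, to 0.71; at a ceiling of 10 Gpm6b 0.0662 and Sept4 0.12; at 40 Rgs5 -0.79 and the Rgs5 interaction -0.98; without doublets Car2 0.12 and Gpm6b 0.0563, and in Lama4-/- Acsl3 -0.0453, Slc1a2 -0.0059 and Dclk1 -0.26. The cause was not tested beyond fewer or more cells and libraries.

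Same-numbered libraries share only a number: their deviations correlated at -0.03 in the Lama5 experiment and -0.16 between wild types. With the number as a replicate block 446 genes passed, 417 of them shared with the 422; the wild-type comparison gave 3227, and 3422 with the crossed pairing. Members of the Lama5 experiment held 487066 to 1020224 UMIs a library, so that 20 CPM is about 10 UMIs in the shallowest library.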
